A study of Mus musculus with 8 samples.

Results

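Immunoglobulin kappa variable (Igkv) genes encode the part of the kappa light chain that contacts antigen, and the Igkv gene that a B-lineage cell transcribes usually marks the rearrangement it carries. All genes with a symbol starting with Igkv were taken, which gave 160 of the 32285 genes in the count matrices. For each cell, the Igkv gene with the most unique molecular identifiers (UMIs, a count of captured RNA molecules) was called as the gene used, where it had at least 2 UMIs and no tie. Usage, the share of called cells with a given gene, was then described in B cells, developing B cells and plasma cells of each library.

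The data were droplet-based single-cell RNA sequencing libraries of CD45.2-positive cells sorted from the perfused brains of mice 16 weeks old by the labels. The study asked how intestinal inflammation changes brain immune cells in mice that model amyloid deposition, and compared C57BL/6J wild-type (WT) mice with APPNL-G-F mice (App), which carry a knock-in of a humanized amyloid precursor sequence with the Swedish, Arctic and Iberian mutations at the endogenous locus. Each genotype had a control group given water, an acute colitis group given 2% dextran sulfate sodium (DSS) for a week, a chronic colitis group given repeated cycles of 2% DSS and water, and a food allergy group sensitized and then fed with ovalbumin. Each of the 8 conditions had 1 library, in which up to 4 hashtag antibodies, numbered 4 to 7, marked pooled samples. The labels do not say which animals a hashtag stands for, so hashtag groups are described here and are not called mice. A single condition therefore had no replicate, and a treatment effect could not be told apart from a difference between libraries.

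The kappa locus is assembled by the RAG1 and RAG2 recombinases, which join 1 of many V genes to 1 of a few J genes in pre-B cells, after the heavy chain has been made and has paired with the surrogate light chain encoded by Vpreb1 and Igll1. V genes lie over several megabases upstream of the J genes in either transcriptional orientation, and a cell can rearrange again, to a V gene farther away, if the first join fails. A cell that cannot make a useful kappa chain can go on to rearrange lambda. Cells of 1 clone share a rearrangement, so a gene used by many cells can reflect many rearrangements or few clones.

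The Igkv genes occupied chr6:67555497-70704177 of GRCm38, upstream of Igkj1 at chr6:70722562-70722599, by the GENCODE vM21 annotation. Of the 160 genes, 100 were annotated as functional V genes and 60 as V pseudogenes, in 20 families, and 75 had the orientation of the constant gene Igkc against 85 in the opposite orientation. UMIs were found for 131 genes, and 108 were the called gene of at least 1 B-lineage cell, made up of 98 functional genes and 10 pseudogenes. The functional genes with no call were Igkv1-131 and Igkv8-26. Near-identical copies can take reads from each other, and 22 genes had a nearest copy with at least 97% identity. They included Igkv10-94 (97.1% with Igkv10-95), Igkv6-20 (98.2% with Igkv6-29) and Igkv17-127 (97.9% with Igkv17-121).

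The 3′ ends of the V segments that the results turn on are printed below as the last 60 bases of each annotated transcript, with the 26 bases from the codon of the conserved cysteine onward in capitals. The capitals after that codon are the germline share of the third complementarity-determining region. The first 4 genes led in B cells or developing B cells.

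Igkv1-117: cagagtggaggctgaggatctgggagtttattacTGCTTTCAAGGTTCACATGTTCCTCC
Igkv10-96: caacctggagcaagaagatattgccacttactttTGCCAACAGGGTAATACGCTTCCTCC
Igkv1-110: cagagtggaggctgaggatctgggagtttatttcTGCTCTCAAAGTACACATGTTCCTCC
Igkv1-135: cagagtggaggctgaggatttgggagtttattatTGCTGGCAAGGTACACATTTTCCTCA

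The next 6 genes led the plasma cells of a library or stood apart in 1 of the classes.

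Igkv8-24: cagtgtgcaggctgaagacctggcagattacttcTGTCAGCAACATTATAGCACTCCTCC
Igkv6-25: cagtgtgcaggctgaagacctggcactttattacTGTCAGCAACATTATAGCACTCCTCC
Igkv10-94: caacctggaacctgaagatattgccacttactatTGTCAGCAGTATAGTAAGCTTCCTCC
Igkv9-129: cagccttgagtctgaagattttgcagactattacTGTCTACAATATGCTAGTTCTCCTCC
Igkv9-124: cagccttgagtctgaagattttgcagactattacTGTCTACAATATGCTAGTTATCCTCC
Igkv6-20: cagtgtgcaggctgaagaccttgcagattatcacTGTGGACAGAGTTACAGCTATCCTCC

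Igkv8-24 and Igkv6-25, which belong to different families and lie beside each other at chr6:70216858-70217421 (minus strand) and chr6:70215400-70215957 (plus strand), had no difference over these 26 bases. Igkv9-124 at chr6:67942074-67942540 (minus strand) and Igkv9-129 at chr6:67839793-67840266 (plus strand) had 1 difference. Igkv1-117 at chr6:68121046-68121827 and Igkv1-110 at chr6:68270485-68271267, both on the plus strand, had 3 differences there, and each had 5 differences from Igkv1-135 at chr6:67609713-67610508 (plus strand). Igkv10-96 at chr6:68631963-68632442 and Igkv10-94 at chr6:68704508-68704978, both on the minus strand, had 6 differences. Igkv6-20 lay at chr6:70335841-70336507 (minus strand).

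2 pairs of leading genes with similar sequences are shown over their last 240 bases, with the bases that differ in capitals, because reads of such genes must be told apart for the usage values to hold. Igkv1-117 and Igkv1-110 differed at 9 of these bases, and Igkv10-96 and Igkv10-94 at 16.

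Igkv1-117: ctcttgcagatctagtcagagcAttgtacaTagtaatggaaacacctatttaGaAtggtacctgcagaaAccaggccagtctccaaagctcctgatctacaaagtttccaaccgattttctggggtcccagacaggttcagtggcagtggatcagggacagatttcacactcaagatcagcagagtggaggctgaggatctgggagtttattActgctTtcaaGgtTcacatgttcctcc
Igkv1-110: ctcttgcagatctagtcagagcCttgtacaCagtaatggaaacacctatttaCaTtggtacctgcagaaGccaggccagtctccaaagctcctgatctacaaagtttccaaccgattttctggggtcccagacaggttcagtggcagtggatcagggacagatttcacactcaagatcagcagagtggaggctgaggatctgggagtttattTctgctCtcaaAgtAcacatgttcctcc
Igkv10-96: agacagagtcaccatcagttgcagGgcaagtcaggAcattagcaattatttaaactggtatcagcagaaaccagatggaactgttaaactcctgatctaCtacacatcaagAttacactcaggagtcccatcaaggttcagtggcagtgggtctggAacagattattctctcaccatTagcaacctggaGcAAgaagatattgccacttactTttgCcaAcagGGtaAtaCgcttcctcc
Igkv10-94: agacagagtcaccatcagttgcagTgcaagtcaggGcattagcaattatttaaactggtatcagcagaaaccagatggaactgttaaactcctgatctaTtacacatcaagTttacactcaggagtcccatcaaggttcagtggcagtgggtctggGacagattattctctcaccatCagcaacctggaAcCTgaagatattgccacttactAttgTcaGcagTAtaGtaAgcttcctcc

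Cells were sorted into classes by marker UMIs. Plasma cells had at least 5 UMIs of Jchain, which joins secreted IgM and IgA. Of the others, developing B cells had a UMI of Vpreb1, Vpreb3 or Igll1, and B cells had a UMI each of Ms4a1 (CD20) and Cd79a (a chain of the B cell receptor complex). Among 50088 cells this gave 1327 plasma cells, 10639 developing B cells and 2137 B cells. Vpreb3 was detected in most cells with Ms4a1, so 5883 cells passed the rules for both B cells and developing B cells and were placed with the developing cells, where they made up 55.3% of the class. The B cells described here are thus the cells with Ms4a1 and without a Vpreb3 UMI, and the developing class was also divided by Ms4a1 into 5893 cells with it and 4746 without. Cells in which Vpreb3 was missed for want of depth cannot be told apart from cells that lacked it.

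Other markers, which the class rules did not use, were checked in each class. Cd79b was detected in 95.7% of the B cells, Ighd in 36.2% and the recombinase gene Rag1 in 0.19%. Rag1 was detected in 30.7% of the developing cells without Ms4a1 and in 2.97% of those with it, and the proliferation gene Mki67 in 34.1% and 4.92%. The B cell genes Bank1, Fcer2a and Ighd were detected in 57.8%, 20.4% and 19.5% of those with Ms4a1. The shares were 6.34%, 1.88% and 9.99% without Ms4a1, and 65.7%, 31.3% and 36.2% in B cells. Of the 7142 called developing cells, 5315 had Ms4a1, so usage values of the class mostly describe cells with Ms4a1. The plasma cells carried Xbp1 in 97.5%, Mzb1 in 93.4%, Sdc1 in 74.9% and Tnfrsf17 in 59.6%. Neutrophil RNA was present in every class, with S100a8 detected in 18.5% of B cells and 27.6% of plasma cells.

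Libraries held 4874 to 7199 cells and 25616824 to 54618574 UMIs in cells. The WT food allergy plasma cells stood apart by depth, with a median of 2208.5 UMIs per cell against 19456 for all plasma cells, and 31.8% of them had fewer than 50 Jchain UMIs against 0.66% to 8.45% in the other libraries. In that library 69 of 220 plasma cells had no hashtag, and these had a median of 1199 UMIs. Pairs of libraries shared 34 to 72 cell barcodes, at most 1.25% of the smaller library.

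An Igkv gene could be called in most cells of the mature classes. It was called in 90.6% of the B cells (1936 of 2137, exact 95% binomial interval 89.3% to 91.8%), from 82.4% in WT food allergy to 94.0% in WT acute colitis, in 67.1% of the developing B cells, from 51.2% to 85.2% between libraries, and in 96.9% of the plasma cells, from 92.8% to 100%. As background, a gene was called in 4.62% of T cells and 4.75% of neutrophils, which do not rearrange the kappa locus. Intervals here cover counting error only. Median depths were 2671 UMIs per cell in B cells, 2592 in developing B cells, 19456 in plasma cells, 3095 in T cells and 7595.5 in neutrophils. With each cell thinned to 1000 UMIs, the shares were 81.3% in B cells, 59.4% in developing B cells, 95.6% in plasma cells, 1.11% in T cells and 0.68% in neutrophils. The thinning left out 56, 221, 18, 212 and 375 shallower cells of these classes. Plasma, B and developing B cells kept their order, all above T cells and neutrophils, and the 2 background classes changed places.

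**Figure D1:**
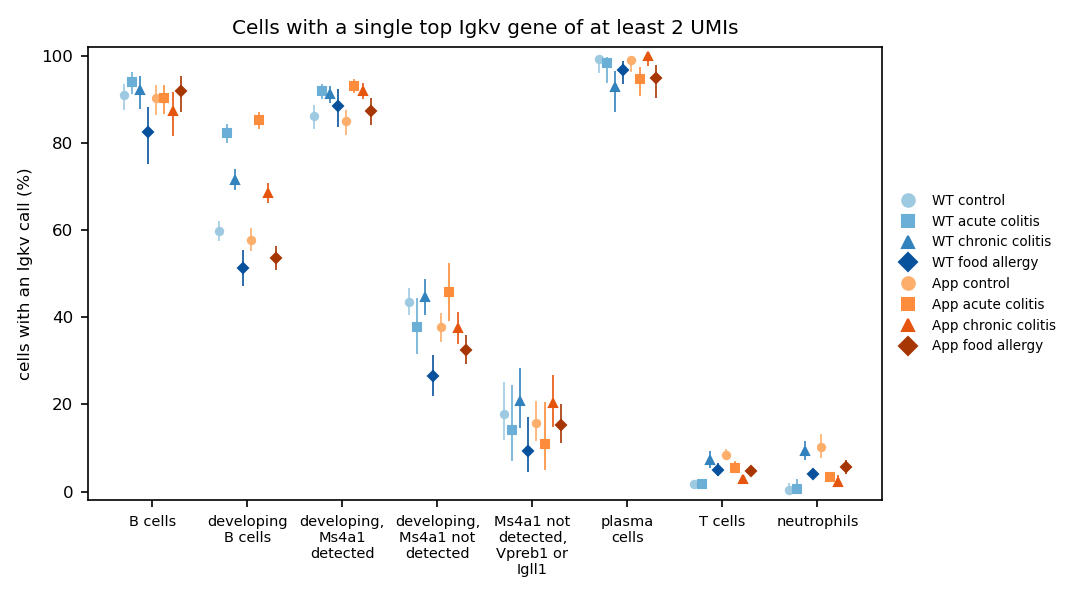
Share of cells with a called Igkv gene (percent, y axis) by class and part of the developing class (x axis), each point 1 of the 8 libraries with its exact 95% binomial interval. B cells and plasma cells lay above 82%, developing B cells ranged from 51.2% to 85.2%, those without Ms4a1 lay lower than those with it in every library, and T cells and neutrophils lay near or below 10.2%.

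The called gene dominated its cell. A called cell held a median of 22 Igkv UMIs in B cells, 29 in developing B cells and 6028.5 in plasma cells, against 3 in T cells and 2 in neutrophils. The top gene took a median over libraries of 97.2% of a B cell's Igkv UMIs, 96.4% of a developing B cell's and 99.9% of a plasma cell's. It took at least 80% in 78.0% of WT control plasma cells and in 92.1% to 99.1% of those of the other libraries, and 30 of the WT control cells below 80% were called as Igkv9-129, with Igkv10-96 as their second gene. Plasma cells in which it took under 80% were more frequent among cells with several hashtags (13.1%) than among the rest (4.97%), and so were such developing B cells (37.1% against 22.6%), while B cells were alike (17.2% and 17.6%). The contribution of doublets to these cells was not tested.

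The cells without a call differed in their lambda light chain. Of the 201 uncalled B cells, 112 had at least 2 UMIs of the lambda V genes Iglv1, Iglv2 or Iglv3 (55.7%, exact 95% interval 48.6% to 62.7%), against 8.88% of the called B cells. Among developing B cells with Ms4a1 the shares were 73.9% of uncalled cells and 12% of called cells. Among those without Ms4a1 the order was the other way round, with 7.61% of uncalled and 10.5% of called cells. In plasma cells 40 of 41 uncalled cells had lambda UMIs, but so did 83.4% of the called ones.

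B cells used a broad set of genes led by Igkv1-117 and Igkv10-96. Igkv1-117 was used by 3.49% (App food allergy) to 7.69% (WT food allergy) of called B cells, with a mean over libraries of 5.91% ± 1.30 (SD, n = 8 libraries of 8 conditions) and 114 cells in all. Igkv10-96 ranged from 3.42% to 8.24% with a mean of 5.73% ± 1.57 and 116 cells. These means differed by less than the spread between libraries.

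Igkv1-110 and Igkv1-135 followed in B cells. Igkv1-110 had a mean of 3.74% ± 1.95 and ranged from 0.85% to 6.47%, and Igkv1-135 had a mean of 3.63% ± 1.29 and ranged from 1.99% to 5.29%. The next genes, Igkv6-23 (2.87% ± 1.5), Igkv6-17 (2.83% ± 1.14), Igkv6-25 (2.80% ± 2.85) and Igkv6-32 (2.67% ± 3.95), all belonged to family 6. Igkv14-111 (2.49% ± 0.68), Igkv6-15 (2.46% ± 1.31), Igkv17-127 (2.37% ± 0.84) and Igkv12-44 (2.26% ± 1.19) completed the 12 most used. From Igkv1-110 down, neighbours in this order did not differ beyond their spread.

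The wide spread of Igkv6-32 and Igkv6-25 came from single libraries. Igkv6-32 was used by 12.2% of App food allergy B cells, by none of the App chronic colitis B cells, and had a median of 1.27% over libraries. In the App food allergy library, 19 of 88 called B cells of hashtag 7 used it, and 14 of the 71 with a called heavy chain variable gene paired it with Ighv1-69. Igkv6-25 was used by 9.40% of WT food allergy B cells and had a median of 1.79%. In that library, 6 of the 11 B cells of hashtag 7 with both genes called paired it with Ighv1-82. Igkv12-98, outside the 12 most used, showed the same in App food allergy (5.81%), where 9 of 30 B cells of hashtag 6 used it. It was named after its values were seen.

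Genes of the B cells were spread nearly evenly compared with plasma cells. The effective number of genes, the number of equally used genes that would give the same chance that 2 cells share a gene, had a median of 41.7 over libraries in B cells (27.0 in App food allergy to 48.7 in App control), 44.7 in developing B cells (40.6 to 51.0) and 20.9 in plasma cells (6.91 in WT acute colitis to 35.3 in WT chronic colitis). The plasma and developing ranges did not overlap, while the plasma and B cell ranges did. These numbers also depend on how many cells were called, which differed between classes.

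Developing B cells led with Igkv1-135. It was used by 5.15% to 8.18% of called developing cells with a median of 6.38% and a mean of 6.46% ± 1.12 (459 cells), followed by Igkv1-117 (4.97% ± 0.88, 361 cells), Igkv10-96 (4.08% ± 0.59, 291 cells), Igkv1-110 (3.72% ± 1.36, 256 cells) and Igkv9-120 (2.89% ± 0.46). Within each library Igkv1-135 was used more in developing than in B cells in 8 of 8 libraries, by 2.83 ± 1.44 percentage points (mean and SD of the differences). Igkv10-96 was used less in developing cells in 7 of 8 libraries, by −1.65 points, and Igkv6-25 in 7 of 8 by −1.98 points, from 2.80% to 0.82%.

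**Figure D2:**
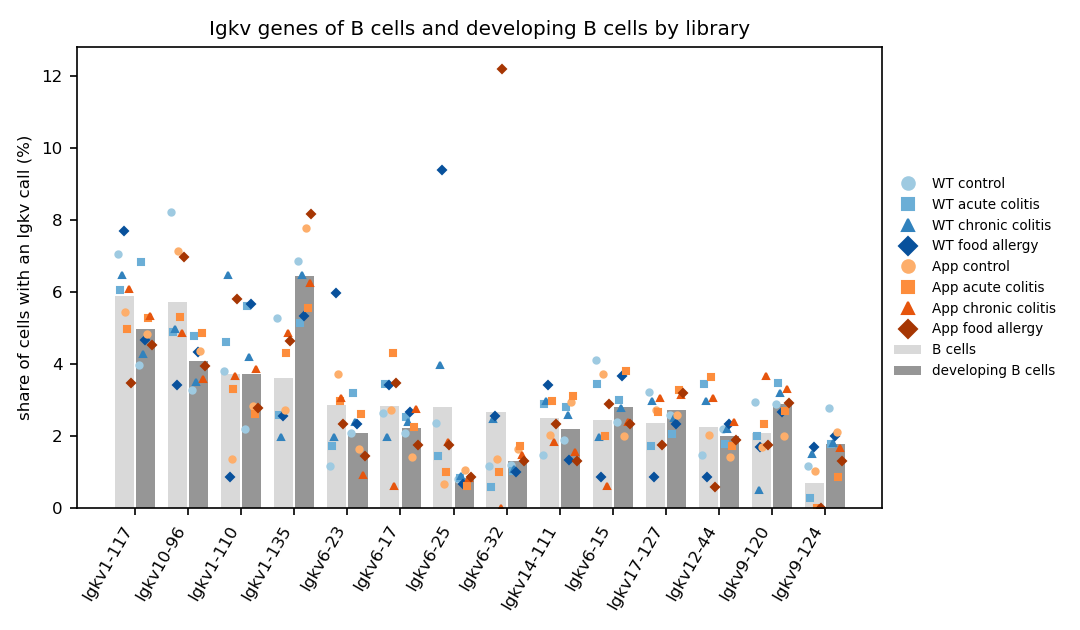
Share of called cells (percent, y axis) that used the 12 leading genes of B cells, Igkv9-120 and Igkv9-124 (x axis), with light bars for the mean over libraries in B cells, dark bars for developing B cells and 1 point per library. Igkv1-135 stood at a mean of 3.63% in B cells and 6.46% in developing B cells, and the single high points of Igkv6-32 (12.2%) and Igkv6-25 (9.40%) in B cells are App food allergy and WT food allergy.

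The expression of the same genes was tested with edgeR's quasi-likelihood test on UMIs summed per library and class over called cells, with the library as a block and Benjamini-Hochberg adjustment over all genes. Replicates were libraries of different conditions, so the p-values measure how steady a difference was across them. Developing and B cells of 1 library are different cells of the same pools. The test covers both how many cells used a gene and how many UMIs each gave.

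Of the 78 Igkv genes tested between developing and B cells, 7 were higher and 1 was lower in developing cells at an adjusted p under 0.05. Over all 9220 genes, 27.7% were called, 13% higher and 14.7% lower, so the share among Igkv genes was below that background. The median log2 fold change was 0.36 over the Igkv genes and −0.01 over all genes. Igkv1-135 rose with a log2 fold change of 1.41 (SE 0.20, adjusted p = 0.00021), and 5 of the other 6 genes that rose also lay over 2 Mb from Igkj1, as did 53 of all 160 genes. These were Igkv1-122 (1.68, SE 0.56, adjusted p = 0.040), Igkv2-137 (0.95, SE 0.33, adjusted p = 0.049), Igkv16-104 (0.79, SE 0.15, adjusted p = 0.0017), Igkv1-110 (0.57, SE 0.18, adjusted p = 0.028) and Igkv17-127 (0.51, SE 0.12, adjusted p = 0.0050). Igkv19-93, 1.99 Mb from Igkj1, rose by 0.78 (SE 0.25, adjusted p = 0.032). Igkv6-25 fell (−0.88, SE 0.30, adjusted p = 0.042), with its high WT food allergy value in the B cells, and lost its call when WT food allergy or any of 4 other libraries was left out. Of the genes that rose, Igkv1-135, Igkv16-104 and Igkv17-127 kept their calls in all 8 fits without 1 library. Igkv1-122 and Igkv2-137 each lost theirs in 6 of these fits, Igkv1-110 in 5 and Igkv19-93 in 3.

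These calls rested on which class the cells with both Ms4a1 and Vpreb3 were counted in. With those cells placed among the B cells, an alternative chosen after seeing the data, 55 of 81 Igkv genes were called and all but 1 were lower in the developing cells, and Igkv1-135 had a log2 fold change of −0.88. The share of all genes called in that order is not given here, so these 55 are not read as a result about Igkv genes. Developing cells without Ms4a1 held fewer Igkv UMIs, with a median of 9 per called cell against 37 in those with Ms4a1.

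Usage also differed inside the developing class, and the differences depended on how many UMIs a call needed. At 2 UMIs, Igkv9-124 was used by 4.97% of called cells without Ms4a1 and 0.90% of those with it, higher in 8 of 8 libraries, with WT acute colitis highest at 14.8%. At 5 or more UMIs, a cutoff used here after seeing the data, its shares were 0.62% and 0.86%, higher in 4 libraries and lower in 4. Igkv1-135 went the other way. Its shares were 6.75% without Ms4a1 and 6.36% with it at 2 UMIs, 8.85% and 6.58% at 5 UMIs (higher in 6 of 8), and 11.6% and 6.99% at 10 UMIs, higher in 8 of 8 libraries by 4.60 ± 3.16 points.

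Igkv1-110, Igkv1-117 and Igkv10-96, which with Igkv1-135 led the B cells, were used less in the developing cells without Ms4a1 in most libraries. Igkv1-110 was used by 1.98% of them against 4.44% of those with Ms4a1, lower in 8 of 8 libraries at 2 UMIs and in 6 of 8 at 5 UMIs. Igkv1-117 was used by 3.38% against 5.43%, lower in 8 of 8 at 2 UMIs and in 7 of 8 at 5 UMIs, and Igkv10-96 by 3.20% against 4.60%, lower in 6 of 8 at both cutoffs. Igkv12-44 was used by 2.11% and 2.08%, higher in 4 libraries and lower in 4. Igkv8-24 was lower in 7 of 8 libraries at 2 UMIs and in 8 of 8 at 5 UMIs (0.69% against 2.58%). Igkv9-129 was used more, by 1.04% against 0.20%, in 7 of 8 libraries.

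The calls of Igkv9-124 with few UMIs came mostly from cells with Mki67, a marker of dividing cells. Of the 84 calls without Ms4a1, 74 rested on 2 to 4 UMIs, and these cells had Mki67 in 83.8% and a median of 7739.5 UMIs. In the 1619 cells without Ms4a1 and with Mki67, a gene was called in 312, and Igkv9-124 was that gene in 65 (20.8%, exact 95% interval 16.5% to 25.8%, all 8 libraries). In the 3127 cells without either, it was the gene in 19 of 1515 calls (1.25%). T cells and neutrophils with Mki67 gave 0 of 84 calls for Igkv9-124, and those without it 2 of 700.

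Low-level UMIs of several Igkv genes were spread over these dividing cells. At least 1 UMI was found for Igkv9-124 in 18.2% of them (11.1% to 23.7% by library), for Igkv1-88 in 10.8% and for Igkv12-89 in 8.40%, while Igkv1-135 was found in 1.98%. In the cells without Ms4a1 and Mki67, Igkv9-124 was found in 3.90% and Igkv1-135 in 6.94%. The dividing cells were deeper, with a median of 7251 UMIs against 2127. After thinning to 1000 UMIs Igkv9-124 was found in 2.64% and 1.81%, and in counts per 1e6 UMIs it gave 25.6 and 34.9, so no order between them is read from these values. In T cells and neutrophils with Mki67 it was found in 0.19%, at a median depth of 13396 UMIs, and gave 0.12 in the same unit.

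Igkv1-135 was also used more by developing cells with the recombinase gene Rag1 than by those without it. At 2 UMIs it was used by 8.68% of the 657 called cells with Rag1 and 6.20% of the 6485 without it. It was then higher in 6 of 8 libraries, by 3.05 ± 4.84 points (mean and SD of the differences). Among developing cells with at least 5 UMIs of the called gene, Igkv1-135 was used by 11.5% of the 407 cells with Rag1 and by 6.65% of the 5869 without it, higher in 7 of 8 libraries. Igkv9-129 was used by 2.70% and 0.29%, Igkv1-117 by 2.95% and 5.62%, Igkv1-110 by 2.21% and 4.14%, and Igkv10-96 by 2.46% and 4.5%. Igkv10-96 was lower with Rag1 in 8 of 8 libraries, Igkv1-117 and Igkv1-110 were each lower in 5 and higher in 3, and Igkv9-129 was higher in 5 and lower in 2, with 7 to 108 such cells with Rag1 per library. Igkv9-124 was used by 0.49% and 0.78%, but at 2 UMIs by 3.20% and 1.62%, higher with Rag1 in 6 of 8 libraries. Rag1 was found mainly in the cells without Ms4a1, so this comparison and the one above share many cells.

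Position in the locus separated the classes little. Genes over 2 Mb from Igkj1 were used by 41.8% of called B cells and 43.2% of called developing cells, a mean difference of 1.07 ± 5.17 points that was positive in 5 libraries and negative in 3. Genes under 1 Mb away were used by 40.5% and 37.6%, and those in between, although the most numerous with 57 of 160, by 17.7% and 19.2%. In plasma cells the far genes took 40.4% pooled, but 17.1% to 62.4% by library. Genes in the opposite orientation to Igkc, whose joining inverts the DNA between them, were used by 53.0% of B cells, 52.2% of developing cells and 62.8% of plasma cells.

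**Figure D3:**
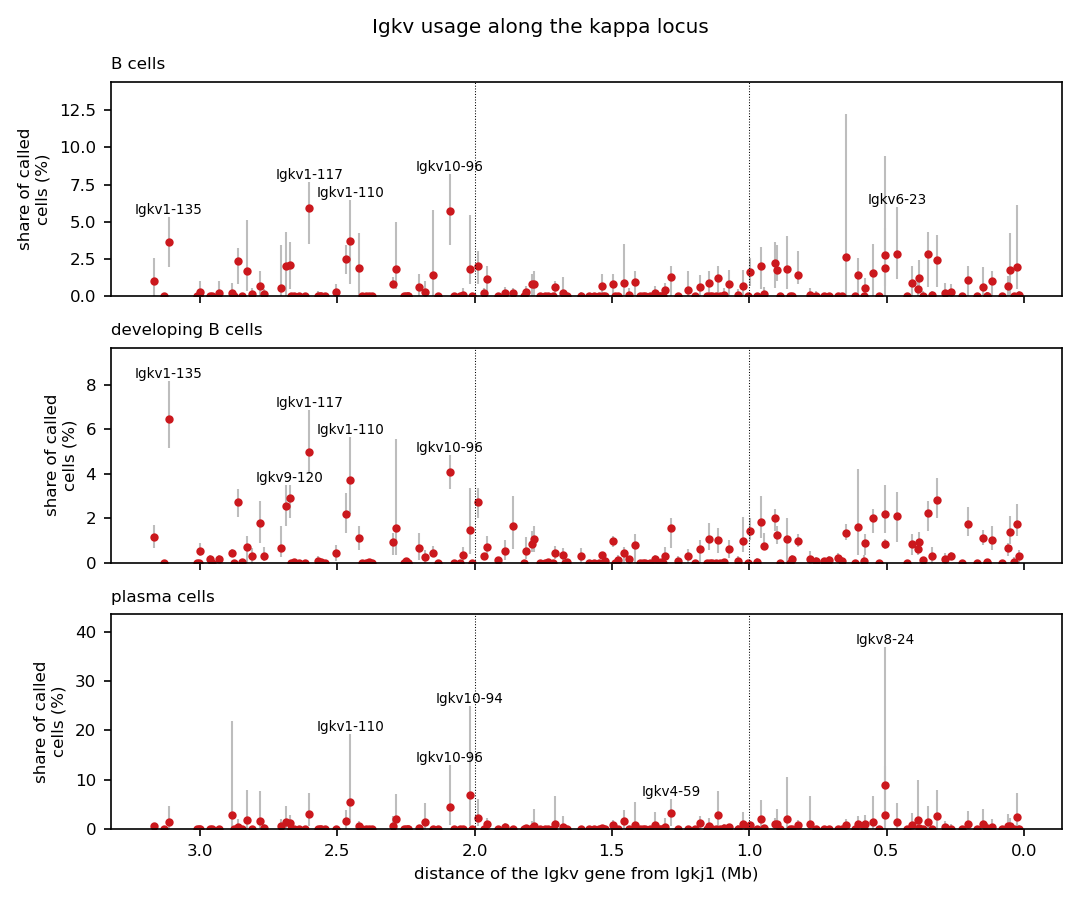
Use of each Igkv gene (share of called cells, percent, y axis) against its distance from Igkj1 in Mb (x axis) in B cells, developing B cells and plasma cells, with points for the mean over 8 libraries, grey lines from the lowest to the highest library and dotted lines at 1 and 2 Mb. Most use in the upper panels lay within 1 Mb and beyond 2 Mb, with 17.7% of B cells and 19.2% of developing cells in between.

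Pseudogenes were rarely the called gene. They made up 0.10% of called B cells (2 cells), 0.83% of called developing cells (59 cells) and 0.16% of called plasma cells (2 cells). Igkv4-77 led with 19 developing cells and Igkv12-40 had 12. In developing cells without Ms4a1 the pseudogene share was 1.97% at 2 UMIs (36 of 1827), 1.09% at 5 UMIs (13 of 1190) and 0.25% at 10 UMIs (2 of 800), against 0.43%, 0.22% and 0.13% in those with Ms4a1.

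By family, B cells used family 1 in 14.5%, family 6 in 13.8% and family 4 in 13.3% of calls. Developing cells used family 1 in 18.2%, family 4 in 12.6% and family 6 in 10.4%, and plasma cells used family 4 in 17.0%, family 1 in 12.5%, family 10 in 12.4% and family 8 in 12.3%.

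Plasma cells differed most between libraries. The leading gene of a library took 7.81% (App control) to 36.9% (WT acute colitis) of its called cells, and 6 different genes led the 8 libraries. Igkv8-24 had the highest mean, 9.02% ± 12.2, and its share in the WT libraries was 7.09% for control, 36.9% for acute colitis, 10.9% for chronic colitis and 12.2% for food allergy, against 1.56%, 1.51%, 1.32% and 0.67% in the App libraries in the same order. All 4 WT libraries were above all 4 App libraries. The share of all genes split in this way is not given here, so the split is not read as a genotype effect. In B cells the same gene was used by 2.39% of WT and 1.93% of App called cells, and in developing B cells by 2.31% and 2.28%.

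Igkv10-94 was next with a mean of 6.87% ± 8.71. It was used by 24.9% of WT food allergy and 15.3% of App food allergy plasma cells, by 5.73% in App control and 3.31% in App chronic colitis, and by 0.71% to 2.70% in the other libraries. Igkv1-110 (5.44% ± 5.91) was also highest in the food allergy libraries, at 19.2% in WT and 8.0% in App. By cells, both food allergy libraries led all others for these genes. For Igkv10-94 the lead of App food allergy did not hold with each Igkv and Ighv pair counted once, as given below. With 1 library of each condition, treatment and library cannot be told apart.

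Further genes were high in 1 or 2 libraries. Igkv10-96 (4.46% ± 4.47) was used by 13.1% of App acute colitis and 9.27% of App chronic colitis plasma cells. Igkv9-129 was used by 22.0% of WT control plasma cells, by 0.90% in WT acute colitis and by no plasma cell of the other 6 libraries. In 30 of the 31 Igkv9-129 cells of WT control, Igkv10-96 held a median of 29.4% of the Igkv UMIs and Igkv9-129 in all 31 a median of 70.4%, so the call names 1 of 2 genes present at high levels there. Igkv6-20 led App chronic colitis with 9.93% and Igkv9-124 led App control with 7.81%. Igkv6-25 was used by 12.8% of WT control plasma cells. Igkv4-59 (3.17% ± 2.11) was instead spread over libraries, from 0.66% to 6.20%.

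**Figure D4:**
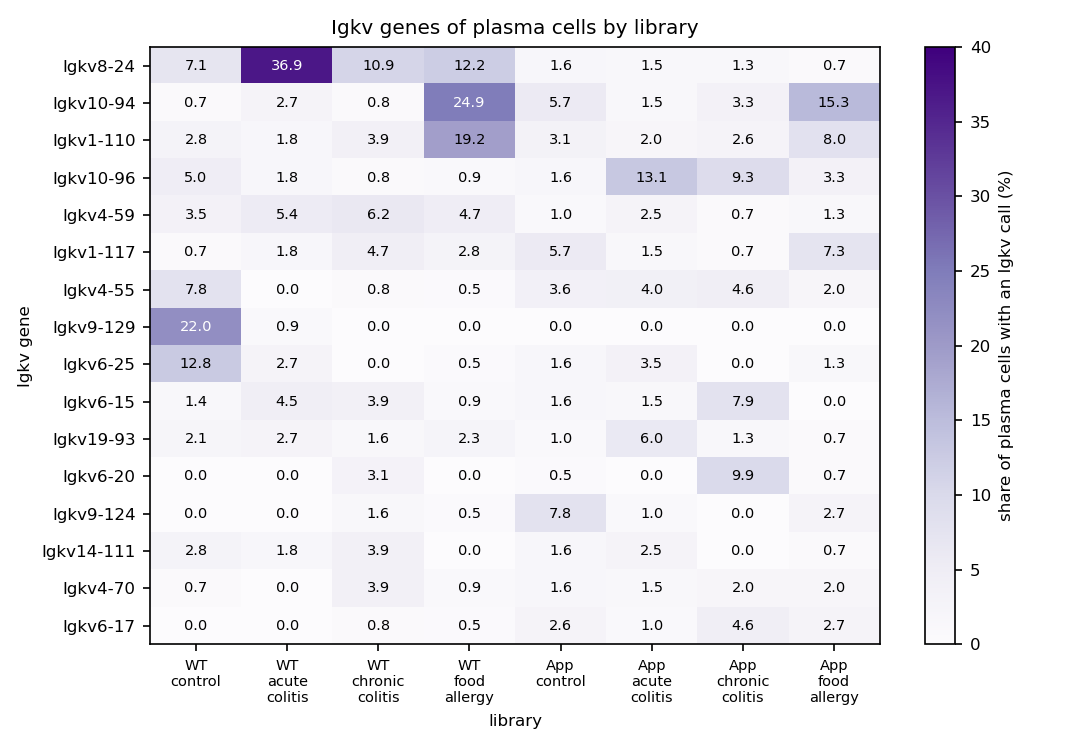
Share of called plasma cells (percent, colour and printed value) that used each of the 16 most used Igkv genes (rows) in each of the 8 libraries (columns). Single dark cells mark Igkv8-24 in WT acute colitis (36.9%), Igkv10-94 in WT food allergy (24.9%) and Igkv9-129 in WT control (22.0%).

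Most leading genes came from 1 hashtag group with 1 heavy chain gene. Of plasma cells with 1 hashtag and both chains called, 43.5% (387 of 890) shared their Igkv and Ighv gene with at least 2 other cells of the same hashtag group, against 4.71% of B cells (65 of 1380) and 2.28% of developing B cells (124 of 5430). Of these groups, 11 had at least 10 plasma cells, and they held 177 cells. The 2 genes of a pair do not show the junction sequence, so cells of a pair can be of more than 1 clone.

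The largest pair of each WT library held 10 to 38 cells. Here and in the paragraphs that follow, totals of a hashtag group are plasma cells with both genes called. In WT control, 22 of 24 plasma cells of hashtag 4 paired Igkv9-129 with Ighv1-82, and 16 of 47 of hashtag 5 paired Igkv6-25 with Ighv1-82. In WT acute colitis, 26 of 66 of hashtag 5 paired Igkv8-24 with Ighv1-26, and in WT chronic colitis 10 of 71 of hashtag 6 paired it with Ighv6-6. In WT food allergy, 38 of 69 plasma cells without a hashtag paired Igkv10-94 with Ighv1-75, with a median of 171.5 Igkv UMIs, and 24 paired Igkv1-110 with Ighv2-2. Most plasma cells without a hashtag in that library thus carried 1 of those pairs, and these were also its shallow cells.

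The largest pair of each App library held 11 to 21 cells. In App acute colitis, 21 of 62 plasma cells of hashtag 5 paired Igkv10-96 with Ighv1-82 and 12 paired Igkv12-41 with Ighv3-6. In App food allergy 17 of 47 of hashtag 4 paired Igkv10-94 with Ighv1-82, in App chronic colitis 13 of 71 of hashtag 6 paired Igkv6-20 with Ighv14-4, and in App control 11 of 84 of hashtag 7 paired Igkv4-80 with Ighv1-66. The leading pairs of Igkv10-94 in the 2 food allergy libraries thus had different heavy chain genes, Ighv1-75 in WT and Ighv1-82 in App.

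A low count can name a gene that is not the cell's light chain. In WT food allergy, 17 of 86 plasma cells of hashtag 4 were called as Igkv14-126 with Ighv1-72 and Ighg2b. These cells had a median of 3 UMIs of Igkv14-126, 0 of Igkc, and 1052 of the lambda gene Iglv1.

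**Figure D5:**
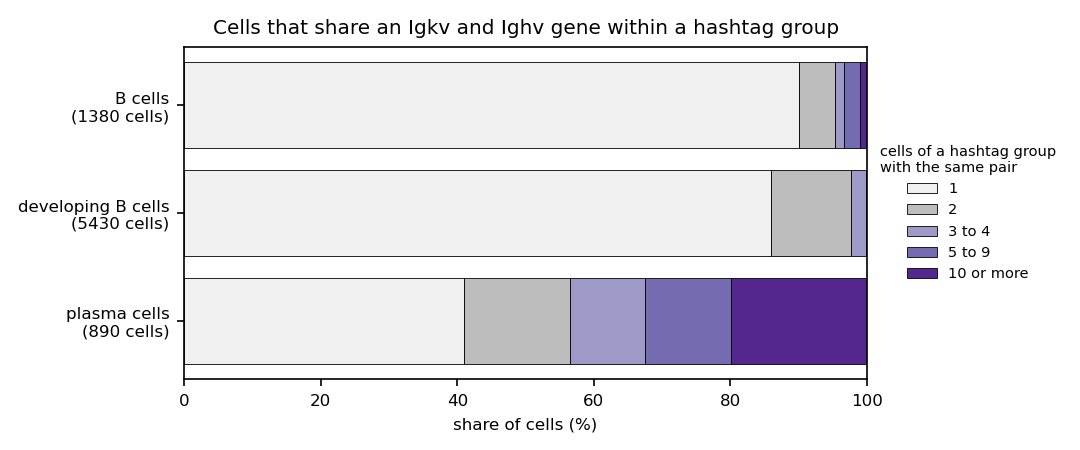
Share of cells (percent, x axis) of each class (y axis) whose pair of Igkv and Ighv gene was found in 1, 2, 3 to 4, 5 to 9 or 10 or more cells of the same hashtag group, for cells with 1 hashtag and both genes called. Of plasma cells 41.0% were alone and 43.5% lay in groups of 3 or more, against 90.1% and 4.71% of B cells.

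Some pairs recurred in several libraries. The 1282 plasma cells with both genes called held 473 pairs, of which 395 were seen in 1 library, 78 in at least 2 and 7 in at least 4. Igkv4-70 with Ighv1-50 was found in 14 cells of 6 libraries, Igkv12-41 with Ighv3-6 in 29 cells of 5, Igkv4-55 with Ighv1-80 in 22 cells of 5 and Igkv14-126 with Ighv11-2 in 10 cells of 4. No barcode with the same pair was shared between libraries. Igkv8-24 with Ighv1-26 was found in 65 cells of the 3 libraries WT control (9), WT acute colitis (35) and WT food allergy (21).

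Counting each pair once, an alternative chosen after seeing the data, lowered the leading shares. Over 699 pairs of library and hashtag group, Igkv8-24 made up 4.17%, 11.1%, 3.16% and 6.33% of the pairs in the WT libraries in the order above, and 0.94%, 2.86%, 2.33% and 1.08% in App. The WT libraries were still above all App libraries, on 25 pairs in all. The margin was small, with 3.16% of 95 pairs in WT chronic colitis against 2.86% of 105 in App acute colitis. Igkv10-94 made up 10.1% of the pairs in WT food allergy but 2.15% in App food allergy. The latter lay below App control (5.66%), WT acute colitis (4.76%), App chronic colitis (4.65%) and App acute colitis (2.86%). Igkv1-110 stayed highest in the food allergy libraries, at 10.1% in WT and 6.45% in App, with WT control next at 5.56%. The gene that led by cells was then first in WT acute colitis and tied for first with Igkv1-110, at 8 of 79 pairs each, in WT food allergy, and was not first in the other 6 libraries.

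The heavy chain class of the leading plasma cells was mostly IgM. Ighm was the constant gene with most UMIs in 63.5% to 82.0% of called plasma cells of 7 libraries, and App food allergy was led by Igha with 52.0% against 38.0% for Ighm. The Igkv8-24 cells of WT acute colitis had Ighm in 39 of 41 and the Igkv10-94 cells of WT food allergy in 51 of 53. The Igkv1-110 cells had Igha in 40 of 41 cells of WT food allergy and in 12 of 12 of App food allergy. Ighg1 was the constant gene in 13.2% of App chronic colitis and Ighg2c in 10.9% of App control plasma cells, where all 11 hashtag 7 cells that paired Igkv4-80 with Ighv1-66 had Ighg2c.

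Against B cells, 35 of the 67 Igkv genes tested were higher in plasma cells and 2 were lower (edgeR's quasi-likelihood test, library as a block), with a median log2 fold change of 5.53 over the Igkv genes and −0.07 over all genes. Over all 8136 genes 58.3% were called, 28.4% higher and 29.8% lower. A gene used only in plasma cells passed the filter on low counts because of them, so neither the count nor the median is evidence about the Igkv genes as a group. The genes with the largest changes were Igkv1-99 (9.70, SE 3.12, adjusted p = 0.023), Igkv4-57-1 (9.02, SE 2.70, adjusted p = 0.013), Igkv4-70 (8.72, SE 1.49, adjusted p = 0.00037), Igkv4-55 (8.65, SE 1.59, adjusted p = 0.00063) and Igkv4-59 (8.56, SE 0.98, adjusted p = 1.5e-05). Igkv4-58 (−4.37, SE 0.36, adjusted p = 1.0e-06) and Igkv12-98 (−4.57, SE 1.69, adjusted p = 0.036) fell, and Igkv4-58 was the called gene of no plasma cell. Igkv1-99 lost its call in 3 fits without 1 library and kept it in 3, and Igkv12-98 lost its call in 4 and kept it in 2. The other genes named here kept their calls in all 8 such fits.

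In shares of cells, Igkv4-59 was used more by plasma than by B cells in 7 of 8 libraries (3.17% against 1.28%) and Igkv4-55 in 6 of 8 (2.92% against 1.23%). Igkv12-44 was used less in 8 of 8 (0.93% against 2.26%), Igkv1-135 in 7 of 8 (1.41% against 3.63%) and Igkv17-127 in 7 of 8 (0.50% against 2.37%). Plasma cells of 1 pair are related in the sense above, so these shares rest on fewer rearrangements than cells.

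App and WT were compared with 4 libraries each, with treatment as a covariate. In B cells 0 of 81 Igkv genes were called by edgeR's quasi-likelihood test (13 at an unadjusted p under 0.05, and 1 called by DESeq2), and 0% of all 8793 genes were (6.72% at an unadjusted p under 0.05, and 0.114% by DESeq2). For any treatment in B cells, 0 of 81 were called (30 at an unadjusted p under 0.05, and 4 called by DESeq2), where again 0% of all genes were (4.05% at an unadjusted p under 0.05, and 0.102% by DESeq2). Igkv1-117 in B cells was 7.06%, 6.05%, 6.47% and 7.69% in the WT libraries in the order above and 5.44%, 4.98%, 6.10% and 3.49% in App, which overlapped.

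In plasma cells 2 of 83 Igkv genes were called between genotypes by edgeR (16 at an unadjusted p under 0.05, and 14 called by DESeq2), against 0.0962% of all 9357 genes (8.87% at an unadjusted p under 0.05, and 1.16% by DESeq2). Igkv6-14 was higher in App (adjusted p = 0.0025) and Igkv9-129 lower (adjusted p = 0.023). Igkv6-14 was used by 0 of 594 WT plasma cells (a count of 0 allows up to 0.51%) and by 6 of 692 App cells, in all 4 App libraries at 0.50% to 1.56%. In developing B cells it was used by 2 of 3372 WT and 10 of 3770 App cells, and in B cells by 6 WT cells and no App cell. Igkv9-129 was used by 32 WT cells, 31 of them in WT control, and by 0 of 692 App cells (a count of 0 allows up to 0.43%). Both genes lost their calls with thinned cells and with hashtag groups in place of libraries, and Igkv9-129 also in all fits without 1 library except those without WT or App food allergy. Igkv8-24, with its non-overlapping shares, had a log2 fold change of −3.07 (SE 0.79, adjusted p = 0.46 by edgeR) and was not called. Any treatment gave 0 of 83 in plasma cells (20 at an unadjusted p under 0.05, and 7 called by DESeq2), against 0.0534% of all genes (5.87% at an unadjusted p under 0.05, and 0.588% by DESeq2).

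Other genes of the kappa pathway were compared between the classes. Of 29 listed genes, 23 were tested between developing and B cells, and 11 were higher and 4 lower in developing cells by edgeR. Over all genes tested, 13% were higher and 14.7% lower. Rag1 rose by 6.33 on the log2 scale (SE 0.44, adjusted p = 8.0e-07), as did the transcription factors Spib (1.05), Ebf1 (1.02) and Irf4 (0.96), the octamer coactivator Pou2af1 (0.52) and Pax5 (0.33). Ighd, which marks mature naive B cells, fell (−1.19), as did the transcription factor Pou2f1 (−0.46). The lambda genes were mixed. The constant genes Iglc2 (−0.51) and Iglc3 (−0.36) fell and the V gene Iglv3 rose (0.58), while Iglc1, Iglv1 and Iglv2 were not called. Igkc had −0.14 (adjusted p = 0.21 by edgeR).

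Between plasma and B cells, 22 listed genes were tested, of which 9 were higher and 11 lower. Over all genes tested, 28.4% were higher and 29.8% lower. Igkc rose by 5.98 (SE 0.23), Ighm by 5.42 (SE 0.20), Irf4 by 2.91 (SE 0.21) and Pou2af1 by 1.45 (SE 0.15) on the log2 scale. Pax5, which plasma cells switch off, fell (−4.56, SE 0.17, adjusted p = 2.6e-09), as did Ighd (−5.48, SE 0.23, adjusted p = 4.7e-09). None of the 20 to 22 listed genes tested was called between genotypes or treatments in either class, with a lowest adjusted p of 0.48 by edgeR.

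In 5 of 8 libraries 1 gene made up more than 50% of the calls in T cells and neutrophils, and it was not always the leading plasma cell gene. Igkv15-103 made up 128 of 210 such calls in App control, Igkv8-30 made up 79 of 124 in WT chronic colitis, Igkv6-23 made up 63 of 97 in WT food allergy and Igkv17-121 made up 16 of 31 in WT control. Igkv10-94 made up 80 of 138 in App food allergy, where it also led the plasma cells. In the other libraries the calls were more divided, and the first gene made up 4 of 17 in WT acute colitis (Igkv8-24), 25 of 109 in App acute colitis (Igkv12-41) and 21 of 58 in App chronic colitis (Igkv12-89). Igkv15-103 was used by 36 of the developing cells without Ms4a1 in App control, 11.4% of their calls, so a share at 2 UMIs for these genes in these libraries cannot be told apart from free RNA. At 5 or more UMIs Igkv15-103 had a mean share of 1.37% in developing cells without Ms4a1 and 1.06% in those with it.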

How the data were processed

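The authors prepared 8 droplet libraries with the 10x Genomics 5′ kit and deposited UMI counts per gene and barcode for all barcodes, without normalization. The labels name Cell Ranger 6.1.2 and mm10, and the matrix headers name Cell Ranger 4. Counts also held the hashtag antibodies. The V(D)J libraries were not used here.

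A barcode counted as a cell if it passed the order-of-magnitude rule for 3000 expected cells or, with at least 500 UMIs, differed from the ambient profile (ranks 45000 to 90000, 1000 simulations, false discovery rate 0.01), and if it had 200 or more genes and no more than 5% of UMIs from mitochondrial genes. A hashtag was assigned from at least 50 UMIs. Doublets were not removed beyond marking cells with several hashtags.

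UMIs were summed per library and class over called cells and tested with edgeR 4.0.16 (R 4.3.3; filterByExpr, TMM, quasi-likelihood test, Benjamini-Hochberg adjustment over all genes, threshold 0.05). The test was checked on simulated data. Shares, exact binomial intervals and thinning used Python 3.11.15, numpy 2.4.6, scipy 1.17.1 and pandas 2.3.3, and DESeq2 1.42.0 was an alternative. Counts of 0 allow up to 3 counts. Named genes were the 12 most used in B cells, the 5 most used in developing and in plasma cells, up to 5 per direction in each class comparison, those called between genotypes or treatments, the leading plasma gene of each library and 29 pathway genes. Other genes named in the text were chosen after their values were seen. The members, classes and lists were chosen with earlier results of these data known.

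Alternatives were DESeq2, other size factors, no filter on low counts, thinned cells, cells with 1 hashtag, hashtag groups in place of libraries, all cells of a class, stricter class rules, other call cutoffs, and leaving out each library. Gene positions, transcripts and their 3′ ends came from GENCODE vM21 on GRCm38. Promoters and recombination signals of the Igkv genes were not analysed here.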

Additional observations from a re-analysis of the deposited data

Results flagged for a closer look

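In 89 sets of 8 libraries, each the share of called cells with 1 named gene in 1 class, 20 had a single library far from the other 7 by Dixon's criterion (gap to the nearest library over the whole range, 95% critical value). Of these 7 were in B cells, 1 in developing B cells and 12 in plasma cells. The 8 libraries are 8 conditions, so a distant library can be its condition, its pool or a clone, which cannot be told apart. Chance flags about 1 in 20 sets where genes are chosen without regard to their values. The genes here were named from these data, among them the leading plasma cell gene of each library and those called between genotypes. Such a choice can favour a distant library, so 20 of 89 is not compared with the chance rate. That rate also does not hold where most libraries had no cell of a gene: Igkv12-98 in plasma cells rested on 1 cell, with none in the other 7 libraries.

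In B cells the distant libraries were WT food allergy for Igkv6-25 (9.40%), Igkv1-122 (3.42%) and Igkv4-58 (1.71%), App food allergy for Igkv6-32 (12.2%), Igkv12-98 (5.81%) and Igkv4-70 (3.49%), and App chronic colitis for Igkv10-94 (5.49%). In developing B cells it was WT food allergy for Igkv1-122 (1.67%).

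In plasma cells they were WT acute colitis for Igkv8-24 (36.9%), WT control for Igkv9-129 (22.0%) and Igkv6-25 (12.8%), WT food allergy for Igkv1-110 (19.2%), App control for Igkv9-124 (7.81%), Igkv16-104 (2.6%), Igkv6-14 (1.56%) and Igkv12-98 (0.52%), App acute colitis for Igkv19-93 (6.03%), App chronic colitis for Igkv6-20 (9.93%) and Igkv1-99 (5.30%), and App food allergy for Igkv1-135 (4.67%). For Igkv8-24, Igkv9-129, Igkv1-110, Igkv6-25 and Igkv6-20 the distant value came with 1 large pair of Igkv and Ighv gene in 1 hashtag group or in the cells without a hashtag.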

How the results depend on the processing

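The 8 Igkv genes called between developing and B cells became 13 with DESeq2, 34 with no filter on low counts, 17 with thinned cells, 15 with all cells of the class (1 higher), 55 with cells of both rules counted as B cells (1 higher), and 4 (without WT acute colitis) to 9 when 1 library was left out. With both-rule cells as B cells, the log2 changes were −0.88 for Igkv1-135, −2.0 for Igkv2-137, −1.82 for Igkv17-127, −0.055 for Igkv1-122, −2.36 for Igkv1-110, −1.32 for Igkv16-104 and −1.69 for Igkv19-93. With all cells of the class, Igkv17-127 had −0.21 and Igkv1-110 −0.13. Igkv6-25 lost its call with DESeq2, with stricter developing cells and without WT control, WT acute colitis, WT chronic colitis, WT food allergy or App chronic colitis. The 37 genes called between plasma and B cells stayed within 28 (each pair once) to 52 (DESeq2 and no filter), and 33 to 38 when 1 library was left out. For App against WT in B cells the count of 0 became 1 with DESeq2, 4 with no filter, 1 with thinned cells, 1 with cells of 1 hashtag and 0 to 1 without 1 library. For any treatment in B cells it became 4 with DESeq2, 14 with no filter, 1 with thinned cells and 0 to 4 without 1 library. For App against WT in plasma cells the count of 2 became 14 with DESeq2, 7 with no filter, 1 with thinned cells, 0 with hashtag groups, 4 with each pair once, 1 without WT control, WT chronic colitis or App chronic colitis, and 4 without WT acute colitis or App acute colitis. For any treatment in plasma cells the count of 0 became 7 with DESeq2, 10 with no filter and 0 to 4 without 1 library. Igkv9-129 lost its call with thinned cells, hashtag groups, each pair once and in 6 of 8 fits without 1 library, and Igkv6-14 with thinned cells and hashtag groups. With DESeq2, 20.7% of all genes were called between developing and B cells and 51.1% between plasma and B cells. The share of all genes is not given here for the other alternatives. Their counts are thus not read as results about the Igkv genes as a group. The causes of these changes in counts were not tested.

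The share of B cells with a call was 94.2% at 1 UMI, 83.6% at 5 UMIs, 81.3% after thinning, 92.1% with the order-of-magnitude cutoff alone and 92.0% with stricter B cells. The mean share of Igkv1-117 in B cells was 8.05% as a share of Igkv UMIs and 2.70% in hashtag groups low in immediate-early genes, where as few as 5 B cells were called in a library. The genes that led the plasma cells of each library by cells had a mean share of 17.6%, and of 5.10% with each pair counted once, where the mean of the highest share was 7.68%. Of the values of single tested genes under alternatives, 390 kept direction and side of the threshold, 86 kept direction only and 9 reversed. No paired analysis was possible because the labels give no replicate numbers, beyond the library block between classes and the treatment covariate between genotypes. With 1 library per condition, with 117 to 347 called B cells each, differences between single conditions have no error estimate.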

Other observations

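Hashtag groups fell into those low and those high in immediate-early genes (10 genes such as Fos, Jun and Egr1), with 16439 cells in 14 low groups and 27511 cells in 16 high groups. In B cells, Igkv1-117 had a mean share over libraries of 2.70% in low and 6.14% in high groups and was lower in the low groups in 7 of 8 libraries. Igkv6-25 had 8.68% and 1.36%, higher in the low groups in 5 libraries and lower in 3. Low groups held 549 called B cells against 1100, and as few as 5 in a library.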
